A study of Mus musculus with 12 samples.

Results

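The Kruppel-like factors are zinc finger transcription factors, and 10 of them, Klf2, Klf3, Klf4, Klf5, Klf6, Klf7, Klf9, Klf10, Klf13 and Klf15, were followed through the first days of skin wound repair. The members were taken by gene symbol from a count table of 25239 genes. All 10 were present and all 10 passed the filter on low counts, as did 14901 genes in all. The libraries were made from dermal fibroblasts of the back skin of wild-type male C57BL/6 mice aged 8 weeks. Cells were sorted as live, CD45 negative, CD31 negative and SCA1 positive, SCA1 being the surface protein encoded by Ly6a. The groups were unwounded skin (NW) and wounds made by a 4 mm full-thickness punch and taken after 16 h, 1.5 d or 3 d, with 3 libraries each. The labels name no transgene and no drug. Whether each library came from 1 mouse or from pooled skin is not given in the sources used here. The p-values therefore rest on the spread between these libraries, which may differ from that between mice.

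Kruppel-like factors bind GC-rich and CACCC-type DNA through a shared set of zinc fingers at the carboxyl end and differ in the part that recruits cofactors. One branch of the family (KLF2, KLF4, KLF5, KLF6 and KLF7 among these members) recruits acetyltransferases and can activate transcription. A second branch, with KLF3, represses through CtBP, and another, with KLF9, KLF10 and KLF13, recruits the Sin3 corepressor, while KLF15 stands apart. Several members are induced quickly and decay quickly after stimulation of cells, and KLF4 and KLF5 are well known in the epidermis, KLF5 in basal keratinocytes and KLF4 in differentiating ones.

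Promoter sequence was read for the members from RefSeq (GRCm38.p6), where 8 of the 10 had an entry and Klf5 and Klf10 had none. The 250 bases before the start are printed for 4 members, 5′ to 3′ on the gene's strand. Klf2, Klf3 and Klf13 were lower in wound cells at every time, and Klf6 was the most abundant member. Capitals mark CACCC, or GGGTG on the other strand, the core that the family itself binds, and in Klf2 also the longer MEF2 box, an AT-rich palindrome bound by MEF2 factors.
Klf2, chr8:72318812-72319061 (+): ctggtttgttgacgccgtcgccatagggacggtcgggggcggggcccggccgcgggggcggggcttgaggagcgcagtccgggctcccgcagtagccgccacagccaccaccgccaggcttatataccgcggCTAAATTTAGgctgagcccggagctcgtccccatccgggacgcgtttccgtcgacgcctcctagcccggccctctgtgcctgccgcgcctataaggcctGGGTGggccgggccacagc
Klf3, chr5:64803271-64803520 (+): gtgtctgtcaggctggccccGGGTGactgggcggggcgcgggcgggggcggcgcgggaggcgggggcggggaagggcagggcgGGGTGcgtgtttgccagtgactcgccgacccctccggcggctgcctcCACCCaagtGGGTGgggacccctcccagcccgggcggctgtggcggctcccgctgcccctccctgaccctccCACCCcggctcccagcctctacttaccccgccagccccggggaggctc
Klf13, chr7:63938916-63939165 (-): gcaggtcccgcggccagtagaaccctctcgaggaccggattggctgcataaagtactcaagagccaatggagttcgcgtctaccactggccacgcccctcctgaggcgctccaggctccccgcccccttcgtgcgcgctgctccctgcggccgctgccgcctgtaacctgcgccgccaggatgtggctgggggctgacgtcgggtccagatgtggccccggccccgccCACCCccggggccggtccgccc
Klf6, chr13:5861239-5861488 (+): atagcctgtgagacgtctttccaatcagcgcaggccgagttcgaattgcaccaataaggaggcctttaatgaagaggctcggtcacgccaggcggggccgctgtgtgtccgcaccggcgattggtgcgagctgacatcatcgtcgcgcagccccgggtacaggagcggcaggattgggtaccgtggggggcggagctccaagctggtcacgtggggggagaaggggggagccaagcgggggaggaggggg
The members differed in how often their own core stood before the start. The Klf3 window held 5 copies of CACCC, counted on both strands and 1 of them overlapping a GGGCGG box, whereas those of Klf2 and Klf13 held 1 each, that of Klf13 also overlapping another motif, and that of Klf6 none. Among 32851 promoters of that length, 52.0% held at least 1 CACCC and 2.14% held 4 or more copies. Klf6 carried 4 copies of CCAAT, which 33.8% of promoters held at least once and 0.84% in 4 or more copies. The Klf3 window also held 6 copies of GGGCGG, the box bound by SP1, present in 32.7% of promoters. A MEF2 box, which reads alike on both strands and overlapped no other motif in Klf2, was found in 959 promoters, or 2.92%, and was searched for after the Klf2 sequence had been seen. These matches describe letters in a window and were not tied to binding or to any change in level.

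The 12 libraries held between 26389453 and 43493475 counts, so that 3 counts equalled 0.069 to 0.114 CPM, the read count scaled to a common library size. TMM, a method that sets the size of a library by the bulk of its genes, was used for that scaling. Ly6a, the sorted marker, was at 870 to 2916 CPM and the fibroblast genes Col1a1 and Pdgfra were present in all libraries. Pdgfra was at 104 to 179 CPM in NW libraries and 550 to 889 at 16 h. It was at 443 to 974 CPM after 1.5 d and 283 to 504 after 3 d. Of 10 fibroblast markers, 2 were called higher and 3 lower at 16 h, 3 and 1 after 1.5 d, and 3 and 0 after 3 d. Their sum averaged 141323 ± 52045 CPM in NW libraries and 64410 ± 35148 at 16 h (SD, n = 3 each). After 1.5 d it averaged 93619 ± 11226 CPM and after 3 d 182800 ± 60818. Keratinocyte markers were present too: the sum of 16 such genes was 21240 to 38503 CPM in NW libraries, 8605 to 14964 at 16 h, 4259 to 7480 after 1.5 d and 962 to 13152 after 3 d. The gates named in the labels removed CD45 and CD31 positive cells, and none was directed at an epithelial protein. None of the 16 markers was at 0 in any group, and 5 were called lower than in NW cells at 16 h, 12 after 1.5 d and 10 after 3 d. Of the genes behind the gates, Ptprc (CD45) reached at most 8.71 CPM and Pecam1 (CD31) at most 3.98 CPM. The sum of 12 leukocyte markers was 38.8 to 101.6 CPM in NW libraries and 51.7 to 60.5 at 16 h. It was 51.4 to 69.9 CPM after 1.5 d and 58.1 to 80.6 after 3 d. Of 10 leukocyte markers tested, 4 were called higher and 1 lower at 16 h, 3 and 0 after 1.5 d, and 2 and 0 after 3 d. In such bulk samples, fewer cells of a type and less RNA per cell cannot be told apart.

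Per kilobase of exon, the scale on which genes can be compared, Klf6 was the highest member in every group. Klf6, an early-response factor found in most tissues, averaged 265 ± 27.0 CPM per kb in NW cells, 164 ± 26.4 at 16 h, 134 ± 24.2 after 1.5 d and 180.0 ± 36.6 after 3 d (SD, n = 3 each). It made up 34.6% of the members' summed level at 3 d and 26.8% in NW libraries. Klf5 came next in NW cells with 210 ± 47.7 CPM per kb. At 1.5 d it stood behind Klf2, Klf4 and Klf9, and its share of the sum was 8.23% at 1.5 d against 20.9% in NW cells. Klf2 and Klf4 stood close together in NW cells, at 150 ± 20.1 and 147 ± 30.9 CPM per kb, and their libraries overlapped.

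Below these, Klf9 and Klf3 had 73.2 ± 7.90 and 71.6 ± 15.6 CPM per kb in NW cells, a difference smaller than their spread. Klf10 followed with 35.4 ± 8.46, Klf13 with 21.6 ± 5.0 and Klf7 with 19.0 ± 3.53 CPM per kb. Klf15 was far below the others, at 0.700 ± 0.398 CPM per kb in NW cells. By level per kb, 1.34% of tested genes stood above Klf6 in NW cells, 20.97% above Klf7 and 78.8% above Klf15. Summed over the 10 members, the level was 993 ± 129 CPM per kb in NW libraries, 561 ± 37.2 at 16 h, 457 ± 77.6 after 1.5 d and 523 ± 119 after 3 d. Each of the 9 wound libraries had a lower sum than each NW library.

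**Figure D1:**
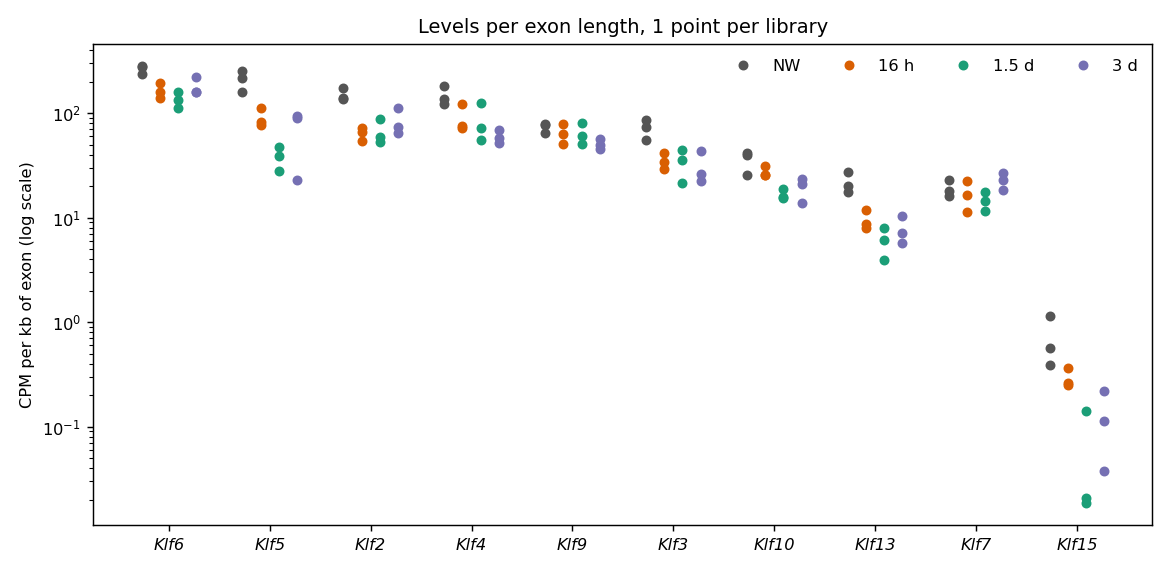
Level of each member as CPM per kilobase of exon on a log axis, with 1 point per library and the groups in time order from NW to 3 d. Klf6 leads in all groups, Klf5 drops furthest among the abundant members, and Klf15 lies well below the rest.

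Between 5 and 7 of the 10 members were called lower than in NW cells at each wound time. At 16 h, 5 members were called lower than in NW cells (Klf2, Klf3, Klf5, Klf6 and Klf13), beside 11.2% of all tested genes. At 1.5 d, 7 were called lower (Klf10 and Klf15 in addition), beside 10.8% of genes, and at 3 d, 6 were called lower (Klf2, Klf3, Klf4, Klf5, Klf10 and Klf13), beside 9.15% of genes. No member was called higher at any wound time, where 13.5%, 13.7% and 12% of all genes were. At an unadjusted p under 0.05 the count of higher members against NW was also 0, and it was 0 with DESeq2. In either direction, 37.4%, 36.8% and 34% of all genes passed that unadjusted threshold. The share that was higher was not computed for it, nor was any share with DESeq2. A member was called at a Benjamini-Hochberg adjusted p under 0.05 over all 14901 genes by edgeR's quasi-likelihood test. The median log2 change of the members was -0.87 at 16 h, -1.09 after 1.5 d and -1.04 after 3 d, where that of all tested genes was -0.04, 0.01 and 0.00.

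Libraries lay wholly below those of NW for 6 members at 16 h, 7 after 1.5 d and 9 after 3 d, the last all but Klf7, as they did for 20.9%, 20.2% and 19.4% of genes. Klf2, Klf3, Klf5 and Klf13 were called lower at all 3 wound times, as were 4.56% of genes. Klf2, Klf3, Klf5, Klf6, Klf13 and Klf15 had all 9 wound libraries below all 3 NW libraries, a pattern found in 11.2% of genes, and none had all 9 above, as 9.81% of genes did. Taken as 1 test over the time course, the edgeR F test called 8 members, all but Klf7 and Klf9, and 29.7% of all genes. The counts changed when 1 library was left out, a fit that also has fewer libraries in a group. The share of all genes called in those fits was not computed, so dependence on a given library cannot be told from lower power. At 16 h the count of lower members was 1 without NW replicate 2 or without 16 h replicate 2, 2 without NW replicate 3, and 3 without NW replicate 1 or 16 h replicate 3. At 3 d it was 3 without NW replicate 3 or without 3 d replicate 1, and the F test count was 4 without NW replicate 2 or NW replicate 3.

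**Figure D2:**
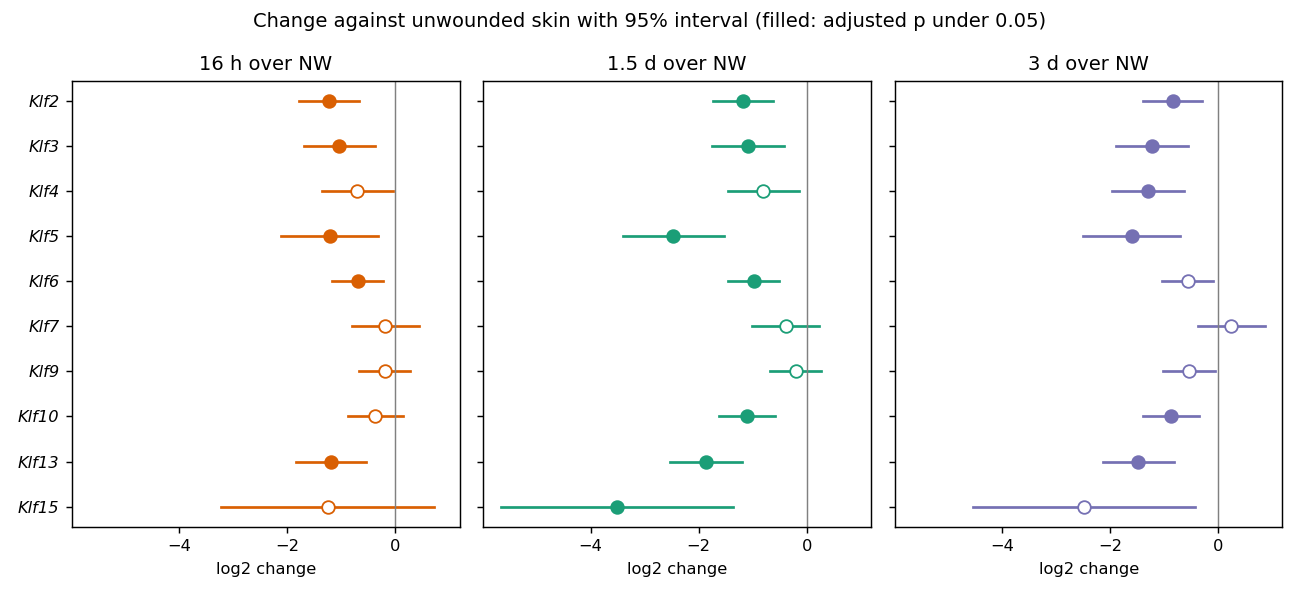
Log2 change of each member in wound cells over NW cells at 16 h, 1.5 d and 3 d, with the 95% interval, where filled points have an edgeR adjusted p under 0.05. All called points lie left of 0, the widest intervals are those of Klf15, and Klf7 at 3 d is the only point to the right of 0.

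Klf2, an activator best known for keeping endothelial cells and T cells quiescent, was called lower at all 3 wound times. It had 252, 314 and 250.3 CPM in NW libraries, 120.4, 97.5 and 130.5 at 16 h, 107, 159 and 96.5 after 1.5 d and 117, 205 and 135 after 3 d. No wound library reached the lowest NW library, and the wound times overlapped one another. The log2 change against NW was -1.23 (SE 0.26, 95% interval -1.78 to -0.68) at 16 h, -1.17 (SE 0.26) after 1.5 d and -0.84 (SE 0.25) after 3 d, with edgeR adjusted p of 0.00429, 0.00551 and 0.0327. In the 12 fits that left out 1 library each, the calls at 16 h and 1.5 d were kept every time. The call at 3 d was lost without NW replicate 1, 2 or 3 and without 3 d replicate 1 or 3, with a highest adjusted p of 0.145. The sum of 10 endothelial markers also lay below NW at each wound time. It was 69.2 to 110.9 CPM in NW libraries and 8.86 to 16.1 CPM at 16 h. After 1.5 d it was 20.1 to 42.2 CPM and after 3 d 18.6 to 57.5 CPM. Its mean was 12.1 CPM at 16 h and 30.9 CPM after 1.5 d, where Klf2 averaged 116 and 121 CPM. Vwf and Erg were at 0 at 16 h. Most of that sum was Tek, the angiopoietin receptor, which averaged 9.20 ± 3.65 CPM at 16 h and 79.3 ± 21.0 CPM in NW cells (SD, n = 3 each). Cdh5, which defines endothelium, was at 0 to 0.211 CPM at 16 h and at 0.496 to 1.33 CPM in NW libraries and was not called (edgeR adjusted p = 0.0813), and Pecam1 overlapped, at 0.367 to 1.91 CPM at 16 h and 0.0763 to 3.98 CPM in NW libraries. Of the 8 endothelial markers tested, Tek, Vwf and Tie1 were called lower at 16 h, and 1, Tek, after 1.5 d and after 3 d. Their part in the Klf2 difference was not tested.

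Klf4, one of the factors used to reprogram cells to pluripotency, was called lower at 3 d alone. It had 372, 553 and 417 CPM in NW libraries, 219, 230.4 and 374 at 16 h, 378, 221 and 169 after 1.5 d and 156, 210.2 and 178 after 3 d. One library at 16 h and 1 at 1.5 d reached the NW range, while all 3 libraries at 3 d lay below it. At 3 d the log2 change was -1.30 (SE 0.31, 95% interval -1.97 to -0.64, edgeR adjusted p = 0.00993), and that call was kept in all 12 fits with a library left out. At 16 h and 1.5 d it was -0.70 (SE 0.30) and -0.81 (SE 0.31), with edgeR adjusted p of 0.11 and 0.0714. Without 16 h replicate 3 the adjusted p at 16 h was 0.0489, and without 1.5 d replicate 1 that at 1.5 d was 0.0131, both past the threshold. DESeq2 also called Klf4 at 1.5 d, at an adjusted p of 0.0312.

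Klf5, an activator of growth genes in basal epithelium and in smooth muscle, had the largest change among the abundant members at 1.5 d and 3 d. It had 274, 437 and 375 CPM in NW libraries, 193, 134 and 143 at 16 h, 66.3, 81.6 and 48.3 after 1.5 d and 39.3, 156 and 163 after 3 d. The 1.5 d libraries lay below all NW and all 16 h libraries, and the lowest value of all was 3 d replicate 1. The log2 change against NW was -1.21 (SE 0.42) at 16 h, -2.47 (SE 0.43, 95% interval -3.40 to -1.54) after 1.5 d and -1.60 (SE 0.42) after 3 d, with edgeR adjusted p of 0.0487, 0.00154 and 0.0166. The 16 h call was marginal: of the 12 fits with a library left out, 2 kept it, those without 3 d replicate 1 and without 3 d replicate 3, and the highest adjusted p was 0.148. The 1.5 d call was kept in all 12, and the 3 d call was lost without NW replicate 2 (adjusted p = 0.0555). The sum of 8 pericyte and smooth muscle markers was 54.4 to 101.9 CPM in NW libraries, 19.7 to 40.9 CPM at 16 h, 23.7 to 37.8 CPM after 1.5 d and 56.7 to 104.9 CPM after 3 d. It lay below NW at 16 h and 1.5 d and overlapped NW at 3 d, with Myh11 at 0 at 16 h, and 4 of the 8 markers were called lower at 16 h and 2 at 1.5 d. Kcnj8, a pericyte potassium channel gene, changed by -3.52 (SE 0.47, edgeR adjusted p = 0.000276) at 16 h. The part of these markers in the level of Klf5 or of any other member was not tested.

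The level of Klf5 moved with that of the keratinocyte markers from library to library. Within each of the 4 groups, the 3 libraries had the same order for Klf5 as for the keratinocyte sum, which held for 36 of 14885 genes, or 0.242%. Klf13 shared that order in 3 groups, Klf6 in 2, Klf2, Klf4, Klf7 and Klf10 in 1, and Klf3, Klf9 and Klf15 in none. Among all genes, 2.02% shared it in 3 groups, 9.43% in 2, 31.9% in 1 and 56.4% in none. Per 1000 CPM of keratinocyte markers, Klf5 was 10.9 to 16.5 CPM in 11 libraries. The exception was 3 d replicate 1, with 962 CPM of keratinocyte markers and 40.9 CPM of Klf5 per 1000 of them.

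**Figure D3:**
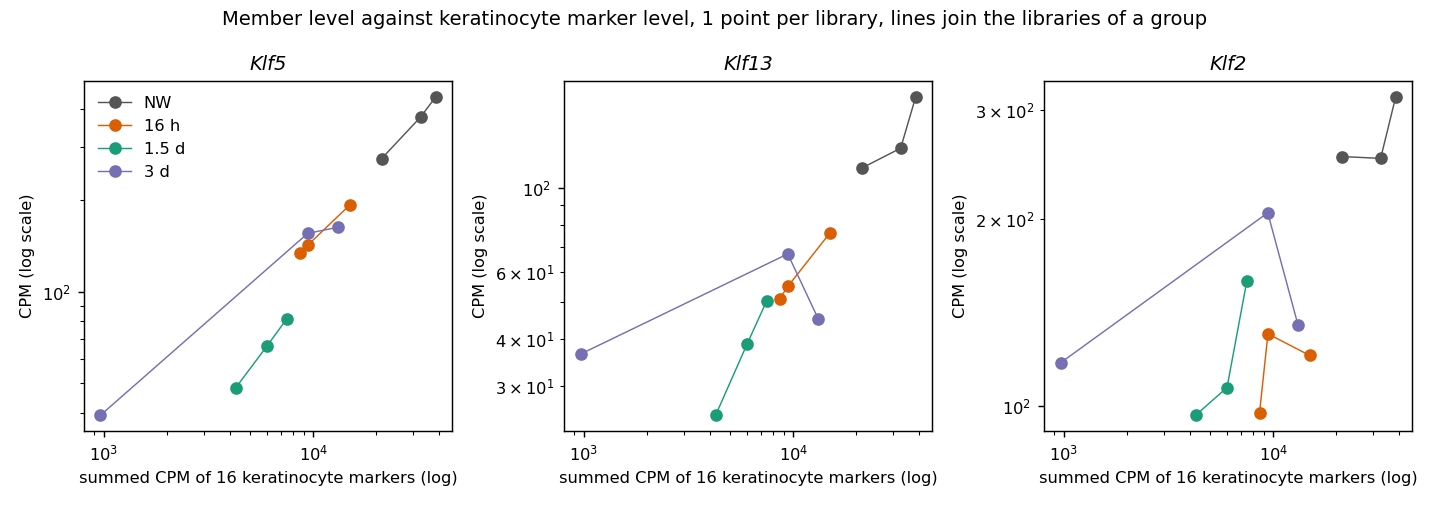
Level of Klf5, Klf13 and Klf2 against the summed level of 16 keratinocyte markers, both as CPM on log axes, with 1 point per library and lines joining the libraries of a group in order of the marker sum. Klf5 climbs with the marker sum in all 4 groups and Klf13 in 3, while Klf2 turns back in 3 of the 4 groups.

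With the mean log2 CPM of the keratinocyte list as a covariate in the edgeR fit, no member was called lower at any wound time. Among all genes the share called lower in that fit, at the same adjusted threshold, was 3.32% at 16 h, 0.268% after 1.5 d and 0.51% after 3 d. At an unadjusted p under 0.05 the counts of lower members were 1, 3 and 1. The share of all genes at that unadjusted threshold was not computed, so these counts have no background beside them. The median change of the members was -0.53, -0.65 and -0.48 in that fit, and 9, 10 and 9 of the 10 remained below 0. For Klf5 the changes were -0.03 (SE 0.24), -0.74 (SE 0.29) and -0.23 (SE 0.28). Klf2 at 16 h changed by -0.88 (SE 0.30, adjusted p = 0.0911) in that fit, and Klf13 at 1.5 d by -1.17 (SE 0.40, adjusted p = 0.186). For Klf4 at 3 d the change was -1.18 (SE 0.48, adjusted p = 0.251), close to that without the covariate but with a larger SE. At 1.5 d the covariate shifted the median of all genes by 0.11 on the log2 scale, to 0.12. Because NW and wound libraries did not overlap in the keratinocyte score, wounding and keratinocyte content cannot be told apart in this design.

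**Figure D4:**
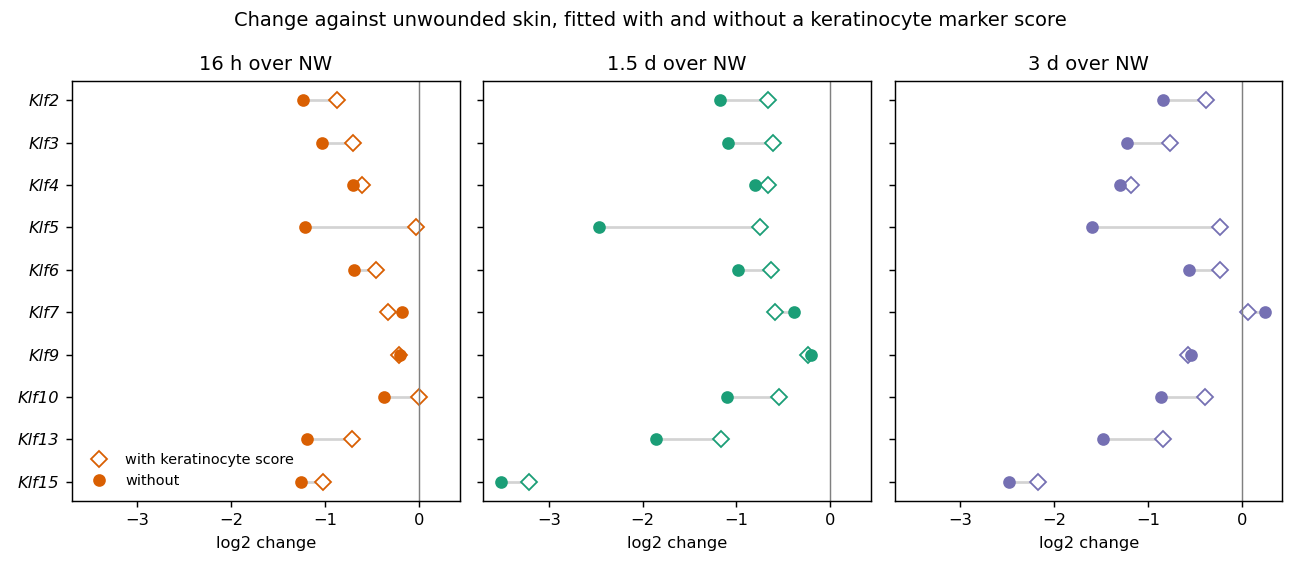
Log2 change of each member over NW cells at the 3 wound times, from the edgeR fit without a keratinocyte covariate (filled circles) and with it (open diamonds). The gap is widest for Klf5 at all 3 times, whereas Klf4 at 3 d and Klf9 hardly move.

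Klf6 and Klf7 belong to the same branch, and Klf6 was called lower at 16 h and 1.5 d while Klf7 was called at no time. Klf6 had 987, 1194 and 1173 CPM in NW libraries, 811, 669 and 592 at 16 h, 559, 671 and 467 after 1.5 d and 672, 937 and 668 after 3 d. All wound libraries were below all NW libraries, though 3 d replicate 2 came close. The log2 change against NW was -0.70 (SE 0.22) at 16 h, -0.98 (SE 0.22, 95% interval -1.46 to -0.51) after 1.5 d and -0.56 (SE 0.22) after 3 d, with edgeR adjusted p of 0.0344, 0.00642 and 0.088. The 1.5 d call was kept in all 12 fits with a library left out. At 16 h it was lost in 6 of them, without NW replicate 1, 2 or 3, without 16 h replicates 2 or 3, or without 3 d replicate 1, with a highest adjusted p of 0.115. DESeq2 called Klf6 at 3 d, at an adjusted p of 0.032.

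Klf7, a factor studied mostly in neurons and adipose tissue, had 21.6, 30.6 and 23.8 CPM in NW libraries, 15.1, 22.0 and 30.0 at 16 h, 23.6, 15.4 and 19.2 after 1.5 d and 30.3, 35.3 and 24.7 after 3 d. Its wound libraries overlapped those of NW at each time. The log2 change against NW was -0.18 (95% interval -0.80 to 0.44) at 16 h, -0.38 (-1.0 to 0.24) after 1.5 d and 0.25 (-0.37 to 0.87) after 3 d. The edgeR F test over the time course gave an adjusted p of 0.329. All 3 libraries at 3 d lay above all 3 at 1.5 d, as in 6.93% of genes, with a log2 difference of 0.63 (SE 0.29, edgeR adjusted p = 0.62).

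Klf3, which represses transcription through CtBP, was lower at every wound time. It had 127, 172 and 198 CPM in NW libraries, 96.5, 79.2 and 67.1 at 16 h, 49.3, 102 and 81.9 after 1.5 d and 61.0, 99.8 and 51.9 after 3 d. The highest wound value lay below the lowest NW value, and the 3 wound times overlapped. The log2 change was -1.03 (SE 0.31) at 16 h, -1.09 (SE 0.31) after 1.5 d and -1.22 (SE 0.31, 95% interval -1.89 to -0.56) after 3 d, with edgeR adjusted p of 0.0266, 0.021 and 0.0138. Leaving out 1 library ended the 16 h call for NW replicates 2 and 3 and 16 h replicates 2 and 3 (highest adjusted p = 0.108). It ended the 1.5 d call for NW replicates 2 and 3 and 1.5 d replicates 1 and 3 (highest 0.088) and the 3 d call for NW replicate 3 and 3 d replicates 1 and 3 (highest 0.0668).

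Among the members that recruit Sin3, Klf13 was called lower at all 3 times. Klf13, a factor known from T cells and heart development, had 113, 174 and 127 CPM in NW libraries, 76.1, 51.0 and 55.0 at 16 h, 38.7, 50.4 and 25.1 after 1.5 d and 36.4, 67.0 and 45.2 after 3 d. Every wound library lay below every NW library, and the 1.5 d libraries lay below those at 16 h. The log2 change was -1.19 (SE 0.30) at 16 h, -1.86 (SE 0.31, 95% interval -2.53 to -1.19) after 1.5 d and -1.48 (SE 0.31) after 3 d, with edgeR adjusted p of 0.0129, 0.00115 and 0.00459. The calls at 1.5 d and 3 d were kept in all 12 fits with a library left out. The 16 h call was lost without NW replicate 2 (adjusted p = 0.0518) or 16 h replicate 2 (adjusted p = 0.0617).

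Klf10, also named TIEG1 for its early induction by TGF-beta, was called lower at 1.5 d and 3 d. It had 166, 103 and 158 CPM in NW libraries, 125, 104 and 103 at 16 h, 61.5, 75.3 and 62.8 after 1.5 d and 55.8, 84.7 and 94.1 after 3 d. The 16 h libraries overlapped those of NW, and those at 1.5 d and 3 d did not. The log2 change was -0.37 (95% interval -0.88 to 0.14) at 16 h, -1.10 (SE 0.24) after 1.5 d and -0.87 (SE 0.24) after 3 d, with edgeR adjusted p of 0.279, 0.00563 and 0.0216. The 1.5 d call was kept in all 12 fits with a library left out. The 3 d call was lost without NW replicates 1 or 3 and without 3 d replicates 1 or 2, with a highest adjusted p of 0.116.

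Klf9, a gene induced by glucocorticoid and thyroid hormone, was not called at any time. It had 344, 352 and 287 CPM in NW libraries, 283, 351 and 225 at 16 h, 357, 269 and 228 after 1.5 d and 221, 252 and 203 after 3 d. Libraries at 16 h and 1.5 d overlapped those of NW, and those at 3 d lay below them. The log2 change against NW was -0.20 (95% interval -0.67 to 0.28) at 16 h, -0.20 (-0.68 to 0.27) after 1.5 d and -0.54 (-1.02 to -0.06) after 3 d, the last with an edgeR adjusted p of 0.101. With library totals in place of TMM, which moved the median of all genes by -0.11 at 3 d, the adjusted p was 0.033.

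Klf15, a regulator of amino acid and fat use in muscle and liver and a glucocorticoid-induced gene, was measured close to the limit. It had 6.18, 3.03 and 2.09 CPM in NW libraries, 1.40, 1.36 and 1.98 at 16 h, 0.10, 0.763 and 0.111 after 1.5 d and 0.611, 0.203 and 1.19 after 3 d. These levels rest on 63 to 162 counts per NW library and on 3 to 31 counts per library at 1.5 d. All wound libraries were below all NW libraries, yet NW replicate 1 was more than the sum of the other NW values. The log2 change was -1.25 (95% interval -3.22 to 0.71) at 16 h, -3.51 (-5.66 to -1.36, edgeR adjusted p = 0.0214) after 1.5 d and -2.48 (-4.54 to -0.42, edgeR adjusted p = 0.0817) after 3 d. The 1.5 d call was lost without NW replicate 1, 1.5 d replicate 1 or 1.5 d replicate 3, with a highest adjusted p of 0.0779. DESeq2 called the 3 d difference, at an adjusted p of 0.0256. The sum of 6 adipocyte markers, a cell type that also expresses Klf15, was 0.704 to 5.70 CPM in wound libraries and 15.9 to 28.6 CPM in NW libraries. Adipoq was at 0 in the 16 h libraries, Plin1 at 0 in the 3 d libraries and Lep at 0 in the NW libraries. Of 4 tested, 3 were called lower at 16 h, 2 after 1.5 d and 1 after 3 d. Lipe was called at no wound time, at 3.92 ± 1.95 CPM in NW cells and 2.59 ± 2.11 at 16 h (SD, n = 3 each). The part of these markers in the Klf15 difference was not tested.

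**Figure D5:**
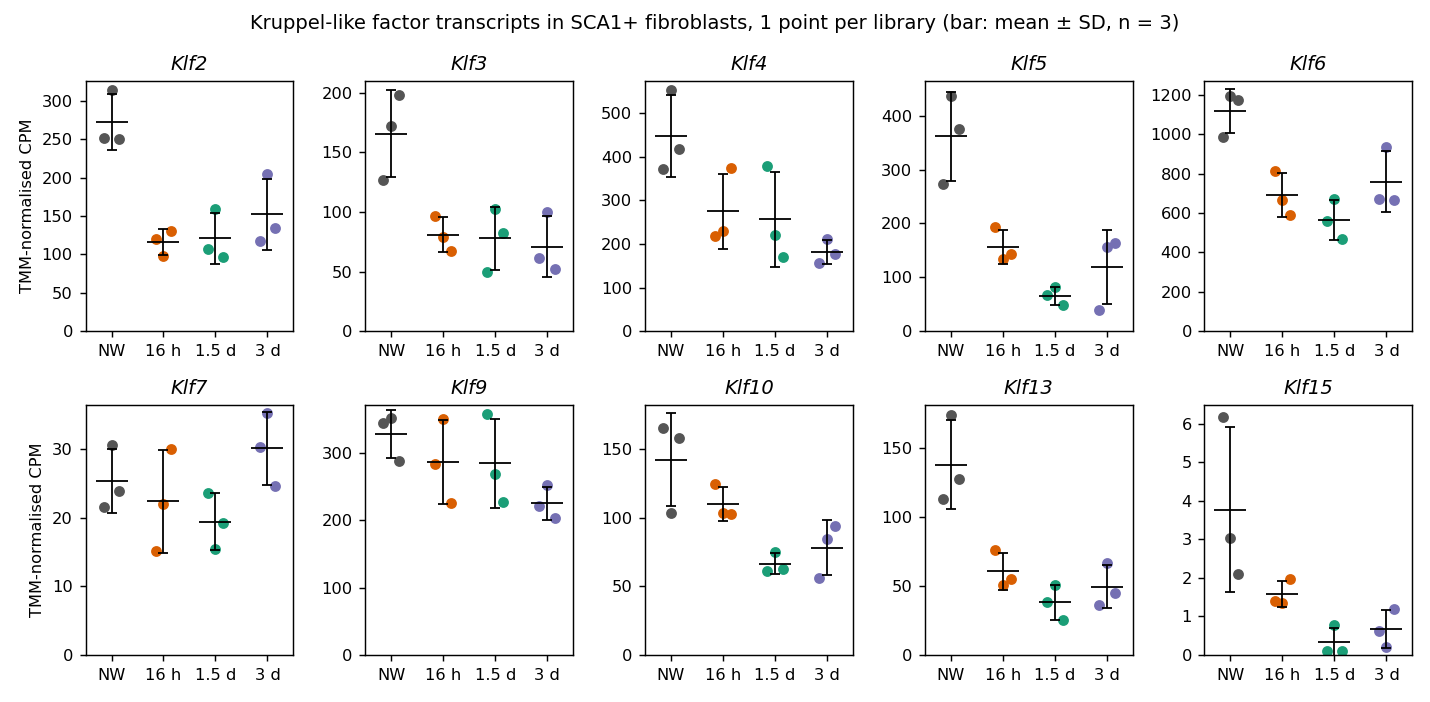
TMM-normalised CPM of each member in every library, with 1 point per library, the bar at the mean and whiskers of 1 SD, for NW, 16 h, 1.5 d and 3 d. NW points stand apart above the wound points for Klf2, Klf3, Klf5, Klf6, Klf13 and Klf15, and mix with them for Klf4, Klf7, Klf9 and Klf10.

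Between the wound times, no member was called by edgeR in any of the 3 comparisons, where 2.86% of genes were called for 1.5 d over 16 h, 0.141% for 3 d over 1.5 d and 9.53% for 3 d over 16 h. At an unadjusted p under 0.05, Klf5, Klf10, Klf13 and Klf15 were lower at 1.5 d than at 16 h, Klf7 was higher at 3 d than at 1.5 d, and the count for 3 d over 16 h was 0. The share of all genes past that threshold, in either direction, was 17.4% for 1.5 d over 16 h. It was 7.99% for 3 d over 1.5 d and 24.6% for 3 d over 16 h. DESeq2 called 1 of these member differences, Klf5 at 1.5 d over 16 h (adjusted p = 0.0357), as did edgeR without 3 d replicate 1 (adjusted p = 0.022). Klf5 was 65.4 ± 16.6 CPM at 1.5 d and 156 ± 31.8 CPM at 16 h (SD, n = 3 each), a log2 difference of -1.26 (SE 0.42, 95% interval -2.16 to -0.36, edgeR adjusted p = 0.132). These 4 members had 1.5 d libraries wholly below those at 16 h, as did 11.1% of genes. At 3 d, the libraries of Klf4, Klf10 and Klf15 lay wholly below those at 16 h, as for 15.5% of genes. The lowest group mean was at 1.5 d for Klf5, Klf6, Klf7, Klf10, Klf13 and Klf15, at 3 d for Klf3, Klf4 and Klf9 and at 16 h for Klf2. Neighbouring wound groups in these orders overlapped except for Klf10 and Klf15, whose 16 h libraries stood above the 3 d ones.

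Genes that respond within minutes to stimulation, and to the dissociation of tissue, moved with the same groups. Of 20 such genes, 13 were called lower at 16 h, 17 after 1.5 d and 14 after 3 d, and 2 were called higher at each time. The shares of all genes were 11.2%, 10.8% and 9.15% lower and 13.5%, 13.7% and 12% higher. The summed level of the 20 genes was 21721 to 24399 CPM in NW libraries and 11201 to 14487 CPM at 16 h. It was 9026 to 12050 CPM after 1.5 d and 8423 to 12826 CPM after 3 d, so that NW and wound libraries did not overlap. Btg2, an antiproliferative gene, averaged 347 ± 61.4 CPM at 16 h and 888 ± 57.8 CPM in NW cells (SD, n = 3 each), a log2 change of -1.36 (SE 0.20, edgeR adjusted p = 0.000498). Ier2 and Nr4a1, both fast-induced transcription regulators, changed by -1.25 (SE 0.29) and -1.25 (SE 0.25) at 16 h and by -1.92 (SE 0.30) and -1.71 (SE 0.25) at 3 d. Hspa1a, a heat shock chaperone with a near-identical copy and therefore of uncertain level, changed by -1.55 (SE 0.36) at 16 h. The part of this response in the levels of the Kruppel-like factors was not tested.

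Of the 16 other family genes in the table, 11 passed the filter, 3 of them were called by the edgeR F test and 2 were called lower at each wound time, a share to be read beside 11.2%, 10.8% and 9.15% of all genes. Sp1, a housekeeping activator of GC-box promoters, averaged 49.4 ± 18.8 CPM in NW cells, 27.7 ± 2.33 at 16 h, 24.3 ± 5.41 after 1.5 d and 22.1 ± 1.17 after 3 d (SD, n = 3 each). Its log2 changes against NW were -0.83 (SE 0.27), -1.02 (SE 0.27) and -1.16 (SE 0.27), with edgeR adjusted p of 0.037, 0.0146 and 0.00921. Klf11, a close relative of Klf10, changed by -1.62 (SE 0.37, adjusted p = 0.007) at 1.5 d, and Klf16 by -0.95 (SE 0.25, adjusted p = 0.0182) at 3 d, both by edgeR. Klf12, a CtBP-binding repressor like Klf3, missed the F test (adjusted p = 0.063) but was called at 16 h, with 1.16 ± 0.393 CPM at 16 h and 4.89 ± 2.13 CPM in NW cells and a log2 change of -2.07 (SE 0.56, edgeR adjusted p = 0.017). Klf8, the remaining CtBP-binding member, had 0.223 ± 0.329 CPM at 16 h and 2.29 ± 1.16 CPM in NW cells, with an edgeR adjusted p of 0.144. Klf1 and Klf17 were near the limit of detection and did not pass the filter.

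Few cofactors were called. Of 12 corepressors and coactivators, 1 was called higher and 1 lower at 16 h, 2 and 2 after 1.5 d, and 1 and 1 after 3 d, and the rest were not called. At 16 h, 13.5% of all genes were called higher and 11.2% lower, so these counts were near the background. The median log2 change of the list was 0.12, -0.12 and -0.06 at the 3 times. Ctbp2, the corepressor partner of KLF3, averaged 21.8 ± 2.94 CPM in NW cells, 57.5 ± 10.8 at 16 h, 65.4 ± 17.6 after 1.5 d and 41.0 ± 6.95 after 3 d (SD, n = 3 each). All its wound libraries lay above all NW libraries, and the log2 changes were 1.40 (SE 0.25), 1.59 (SE 0.25) and 0.91 (SE 0.25), with edgeR adjusted p of 0.00167, 0.000854 and 0.0196. Kat2b, an acetyltransferase, changed by -1.05 (SE 0.28) at 16 h and -1.11 (SE 0.28) after 1.5 d, and Ncor1, a nuclear corepressor, by -0.78 (SE 0.18) at 1.5 d and -0.63 (SE 0.18) after 3 d, all called by edgeR. Hdac1, a histone deacetylase of the Sin3 complex, changed by 0.73 (SE 0.19, edgeR adjusted p = 0.0148) at 1.5 d.

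Of 11 genes for ubiquitin ligases and related proteins that act on Kruppel-like factor stability or on related factors, 2 were called lower at each wound time and 1 was called higher at 16 h, again near the 11.2% and 13.5% of all genes at that time. The median log2 change of the list was 0.29, -0.13 and -0.26. Siah1a, a RING ubiquitin ligase, changed by -0.95 (SE 0.29), -1.61 (SE 0.29) and -1.27 (SE 0.29) at the 3 times, and Fbxo32, the muscle atrophy ligase also known as atrogin-1, by -2.74 (SE 0.62), -2.80 (SE 0.62) and -1.98 (SE 0.60). Usp10, a deubiquitinase, was called higher at 16 h, with a log2 change of 0.74 (SE 0.18, edgeR adjusted p = 0.00941).

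Of 16 genes for kinases and factors upstream of the family, 3 were called lower at 16 h, 4 after 1.5 d and 2 at 3 d, beside 11.2%, 10.8% and 9.15% of all genes, and the median log2 change was -0.06, -0.04 and -0.11. Srf, the serum response factor, averaged 109 ± 46.1 CPM in NW cells, 47.7 ± 3.95 at 16 h, 47.5 ± 11.3 after 1.5 d and 30.3 ± 6.41 after 3 d (SD, n = 3 each), with log2 changes of -1.20 (SE 0.30), -1.20 (SE 0.29) and -1.85 (SE 0.30) and edgeR adjusted p of 0.0107, 0.0104 and 0.00114. Foxo1, a factor active when insulin signalling is low, changed by -1.33 (SE 0.35), -1.65 (SE 0.36) and -1.54 (SE 0.35). Mef2c, of the MEF2 factors that act on Klf2 and Klf4 in endothelium, changed by -1.71 (SE 0.30, edgeR adjusted p = 0.0016) at 16 h and -1.36 (SE 0.30) after 1.5 d, and by -0.59 (SE 0.30, edgeR adjusted p = 0.177) after 3 d.

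Reported targets of the family did not move in 1 direction. Of 18 tested, 5 were called higher and 4 lower at 16 h, 6 and 4 after 1.5 d, and 6 and 3 after 3 d, with median log2 changes of 0.22, 0.55 and 0.18. Among all genes, 13.5%, 13.7% and 12% were called higher and 11.2%, 10.8% and 9.15% lower. Txnip, a thioredoxin-binding brake on glucose uptake, averaged 27.7 ± 1.64 CPM at 16 h and 167 ± 9.96 CPM in NW cells (SD, n = 3 each), with log2 changes of -2.59 (SE 0.25), -2.90 (SE 0.25) and -2.56 (SE 0.25) at the 3 times and an edgeR adjusted p of 2.91e-05 at 16 h. Thbd, the anticoagulant receptor thrombomodulin, which KLF2 activates in endothelium, averaged 740.4 ± 188 CPM at 16 h and 96.7 ± 19.8 CPM in NW cells, with log2 changes of 2.94 (SE 0.31), 3.27 (SE 0.31) and 2.44 (SE 0.30). Cdkn1a, the cell cycle inhibitor p21, changed by -0.64 (SE 0.22), -1.5 (SE 0.22) and -1.56 (SE 0.22). All 9 of these differences were called by edgeR.

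Glucocorticoid-induced genes were examined because Klf9 and Klf15 belong to that response. Of 12 genes, 4 were called higher and 4 lower at 16 h, 6 and 4 after 1.5 d, and 3 and 6 after 3 d. Of all genes, 13.5%, 13.7% and 12% were called higher and 11.2%, 10.8% and 9.15% lower at these times. Tsc22d3, also called GILZ, averaged 16.4 ± 4.33 CPM at 16 h and 144 ± 11.6 CPM in NW cells (SD, n = 3 each), a log2 change of -3.14 (SE 0.41, edgeR adjusted p = 0.000236), and Zbtb16, a zinc finger regulator also known as PLZF, changed by -3.09 (SE 0.54). Sgk1, a kinase that controls ion transport, averaged 590 ± 58.0 CPM at 16 h and 140.5 ± 15.4 CPM in NW cells, a log2 change of 2.07 (SE 0.20, edgeR adjusted p = 3.15e-05), and Angptl4, a lipase inhibitor, changed by 2.34 (SE 0.29).

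The genes whose profile over the 12 libraries lay closest to each member were found by the root mean square difference in centred log2 CPM, among 6645 genes that averaged 20 CPM or more. For Klf2 these were Vgll4 at 0.195 and Btg2 at 0.201, where the root mean square of the member's own values about their mean was 0.560. For Klf3 they were Rarg and Zfp385a at 0.204 each, for Klf4 Zcchc14 at 0.196 and Junb at 0.217, and for Klf5 Vps37b at 0.238 and Tpd52 at 0.241. For Klf6 they were Nub1 at 0.156 and Tspan5 at 0.159, for Klf10 Cyth1 at 0.205 and Znrf2 at 0.215, and for Klf13 Arid5a at 0.218 and Rora at 0.261. Klf15 had no close match, the nearest being Mboat1 at 0.808 and Adgrg6 at 0.884. Likeness over these 12 libraries is a description, and the libraries of a group share their wound state.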

How the data were processed

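RNA of sorted cells was amplified with SMART-Seq v4, tagged with Nextera XT and sequenced as paired ends on a NextSeq, per the labels, a protocol that keeps no strand. The deposited values are raw counts of read pairs per gene symbol. Read pairs were assigned by the authors with featureCounts 2.0.0, per the file headers, over exons of an mm10 refGene annotation with no strand, multi-mapping or overlap option; STAR, SAMtools, Subread and Partek are named without versions in the submitters' processing notes. No member shares exon bases with another gene of the annotation. The deposited gene lengths (exon bases per gene, in the authors' count table) gave levels per kilobase.

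The table was filtered with filterByExpr and scaled by TMM, and a model with 1 mean per group for the 12 libraries and robust dispersions was tested with edgeR 4.0.16 (quasi-likelihood) in R 4.3.3. Benjamini-Hochberg adjustment of p-values ran over 14901 genes. SEs were obtained from the change and the F value and are approximate. Alternatives were DESeq2 1.42.0 size factors with its Wald test, RLE factors, library totals, no filter, a keratinocyte score covariate, the replicate number as a block, and leaving out each library. In simulated counts for 16 h against NW over 14496 genes, 62 of 96 genes changed 4-fold were called and 3 of 94 changed 2-fold. Few genes were changed in the simulation, whereas 13.5% of genes were called higher and 11.2% lower in the real comparison. The adjustment is stricter when few genes change, so these counts do not give the power in the real data.

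The members and gene lists were chosen with earlier results of these data known. All members were named, as were other family genes called by the F test, up to 4 genes of each pathway list with the smallest F test p, and the 2 genes nearest each called member. A gene of the list of reported targets that this rule names is not reported here. Of the genes this rule names, Fbxw7, Mef2a and most cell type markers were left out of the text, and marker lists are given by their sums and defining genes. Klf8, Klf1 and Klf17 were named outside that rule, after their values had been seen.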

Additional observations from a re-analysis of the deposited data

How the results depend on the processing

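Each difference from NW that was called in the main fit kept its direction under all 18 alternatives, and no member was called higher under any of them. Over 60 member comparisons and 18 alternatives, 987 of 1080 values kept their direction and side of the threshold, 62 lost a call, 9 gained one and 22 changed sign, none of these called. With the keratinocyte score covariate the counts of lower members were 0 at 16 h, 0 at 1.5 d and 0 for 3 d, and the F test count was 0. DESeq2 called 1 member lower at 1.5 d than at 16 h. The cause was not tested for either setting. Leaving out 1 library, and so fitting fewer samples, gave 1 to 5 lower members at 16 h, 5 to 7 at 1.5 d, 3 to 6 for 3 d, 0 to 1 for 1.5 d over 16 h and 4 to 8 by the F test. Same-numbered libraries deviated together only weakly (r of -0.172 to 0.168 over 18 pairs, 2 of them over 0.1). For differently numbered libraries r ran over -0.202 to 0.196. These values show no pairing by number, but deviations from means of 3 libraries cannot exclude it. With the replicate block the counts were 4 at 16 h, 7 at 1.5 d, 6 for 3 d and 6 by the F test, and Klf5 at 16 h had an adjusted p of 0.0847. Library totals in place of TMM moved the median of all genes to -0.11 for 3 d over NW and -0.19 for 3 d over 16 h, and with them 4 members were lower at 16 h, 7 at 1.5 d and 8 for 3 d. Among these alternatives, the share of all genes called lower was computed only with the keratinocyte score covariate. The other counts of called members therefore have no background beside them. Depth limited Klf15 most, with 3 to 31 counts per library at 1.5 d.

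The remaining log2 differences that changed sign were not called, and the cause was not tested. At 16 h over NW, Klf10 was 0.00023 with the covariate, and Klf7 ran over -0.45 to 0.038 with 1 library left out. At 1.5 d over 16 h, Klf2 was -0.012 with library totals, Klf3 was 0.092 with the covariate, and Klf9 was 0.0077 with DESeq2, 0.0078 with RLE factors and 0.016 with no filter. With 1 library left out of that comparison, Klf2 ran over -0.19 to 0.20, Klf3 over -0.30 to 0.19, Klf4 over -0.49 to 0.19, Klf7 over -0.42 to 0.070 and Klf9 over -0.20 to 0.17. With 1 library left out, Klf3 at 3 d over 1.5 d ran over -0.46 to 0.11 and Klf6 at 3 d over 16 h over -0.046 to 0.27. Klf6 at 3 d over 16 h was -0.036 with library totals.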
